A study of Homo sapiens with 8 samples.

Results

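Chromatin accessibility in HCT8 cells after 5 h with membrane vesicles (MVs) of *E. coli* was compared with that of mock-treated HCT8 cells by formaldehyde-assisted isolation of regulatory elements (FAIRE) sequencing. The comparison rests on 2 of the 8 libraries of the series, taken by their labels: the FAIRE library with MVs of *E. coli* MC1061 and the FAIRE library of control cells. HCT8 is an established human cell line from an ileocecal colorectal adenocarcinoma, and MC1061 is a laboratory strain of *E. coli* K-12. The control cells are labelled as not treated, while the study's methods give them the buffer in which the MVs were suspended, so they are called mock here. Cells of both libraries carry no genetic change that the labels name. H3K4me3 ChIP sequencing of the same treatments and a FAIRE library with MVs of *V. cholerae* were used only to describe the regions found. Each treatment has 1 FAIRE library, so the spread between cultures is unknown, no difference was tested, and no p-value is given.

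Gram-negative bacteria shed MVs from their outer membrane, and these carry lipopolysaccharide, proteins and nucleic acids to host cells. In FAIRE, DNA that is not wrapped in nucleosomes stays in the aqueous phase when fixed, sheared chromatin is extracted with phenol and chloroform, so sequencing it marks open promoters and enhancers. Open promoters of active genes usually also carry the histone mark H3K4me3. In a bulk library, more cells with an open site and a more open site in each cell cannot be told apart.

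The sequences below show the regions at the ends of the comparison, so that their base composition and motifs can be set beside the values. Each is 200 bp of the hg19 (GRCh37) plus strand. The first is the centre of the shared region with the highest ratio, the next that of the region with the most tags called only with *E. coli* MVs, and then that of a strong region called only in mock. The last is the DNA just before the first transcription start site (TSS) of JUN. Capitals mark AP-1 motifs (TGANTCA), SP/KLF motifs (GGGCGG) and, in the JUN promoter, the variant TGACATCA, searched on both strands. Of the centres of all 134800 regions, cut to the same 200 bp, 6.44% held the AP-1 motif, 13.6% the SP/KLF motif and 0.850% the variant.
MKNK2, chr19:2045117-2045316: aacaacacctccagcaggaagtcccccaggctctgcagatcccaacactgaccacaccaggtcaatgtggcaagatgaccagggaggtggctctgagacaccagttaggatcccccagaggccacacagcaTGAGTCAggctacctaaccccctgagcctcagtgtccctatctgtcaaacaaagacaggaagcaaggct
ZNF337, chr20:26189682-26189881: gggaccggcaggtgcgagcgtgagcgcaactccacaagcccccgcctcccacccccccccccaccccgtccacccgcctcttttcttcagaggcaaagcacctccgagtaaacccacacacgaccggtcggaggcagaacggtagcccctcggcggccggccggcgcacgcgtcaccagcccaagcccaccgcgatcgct
CES3, chr16:66987597-66987796: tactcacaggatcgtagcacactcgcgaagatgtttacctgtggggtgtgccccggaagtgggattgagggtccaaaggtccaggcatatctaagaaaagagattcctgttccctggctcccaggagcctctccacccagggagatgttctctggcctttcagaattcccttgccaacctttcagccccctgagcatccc
JUN, chr1:59249721-59249920: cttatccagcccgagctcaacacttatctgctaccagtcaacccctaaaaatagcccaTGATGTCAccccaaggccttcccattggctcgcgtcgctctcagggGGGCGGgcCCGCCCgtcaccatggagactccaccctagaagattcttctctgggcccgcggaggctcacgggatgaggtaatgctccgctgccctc

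Tags in this report are those inside listed peaks, so tags of a region outside the called peaks of a library are not counted. The MKNK2 region covers most of MKNK2, which encodes a kinase of the translation factor eIF4E, with its centre in an intron. Its peaks held 556 tags over 14582 bp with *E. coli* MVs against 12 tags over 500 bp in mock. The ZNF337 region is centred outside protein-coding genes, 512292 bp from that gene's TSS. It held 631 tags with *E. coli* MVs with no listed peak in mock or with *V. cholerae* MVs. The CES3 region is centred outside protein-coding genes and held no listed peak with *E. coli* MVs against 60 tags in mock. The JUN region spans the TSS and held 271 tags with *E. coli* MVs against 41 in mock. GC content was 56.0% in the MKNK2 sequence, 71.0% in that near ZNF337, 55.0% in that near CES3 and 60.5% in the JUN promoter. The 3 words of 36 bases taken from each sequence occurred once in the searched reference chromosomes, which were the autosomes and X.

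The library with *E. coli* MVs gave more and far wider FAIRE peaks than mock, although it was sequenced less deeply. It held 7888670 tags, against 14474665 tags in mock. Peaks took 37.3% of its tags (95% interval 37.3 to 37.3), against 7.12% (7.10 to 7.13) of the mock tags. The list with *E. coli* MVs had 94225 peaks on chromosomes 1 to 22 and X, covering 98.2 Mb, and the mock list had 66429, covering 39.2 Mb. The median peak was 661 bp wide with *E. coli* MVs and 500 bp wide in mock, where 500 bp is the smallest size the authors' caller returned. Exactly that size was listed for 38.5% of peaks with *E. coli* MVs, against 72.0% of mock peaks. The weakest listed peak held 6 tags with *E. coli* MVs and 9 tags in mock.

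**Figure D1:**
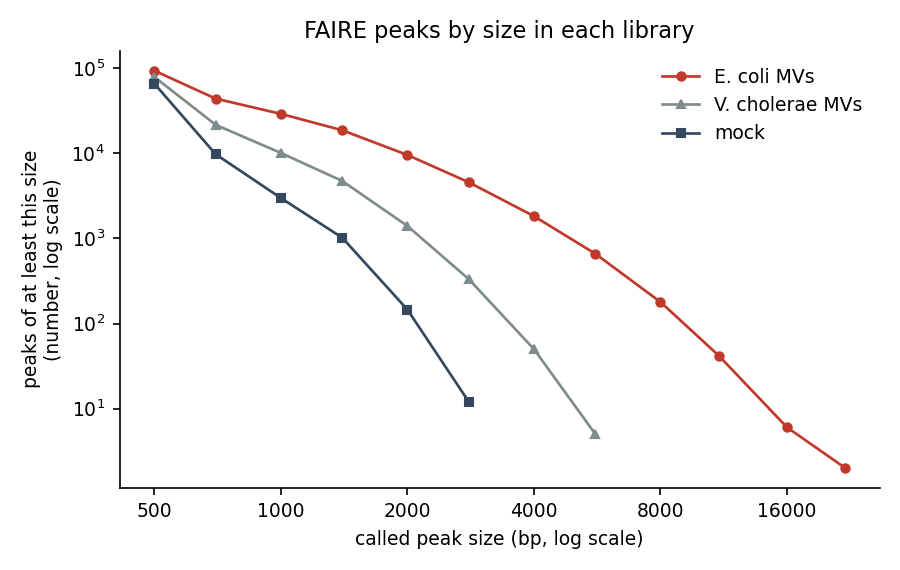
Number of FAIRE peaks (y axis, log scale) of at least a given called size in bp (x axis, log scale) in the lists with *E. coli* MVs, *V. cholerae* MVs and mock, 1 library each. At 2000 bp and above there were 9604 peaks with *E. coli* MVs, 1405 with *V. cholerae* MVs and 146 in mock.

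Peak height was given by the authors as a normalized tag count, the tags of a peak per 10000000 tags of the library. Its median was 19.0 with *E. coli* MVs and 8.98 in mock. Per 1000 bp of called peak, the medians were 27.8 with *E. coli* MVs and 17.1 in mock. The authors' fold over the input library had a median of 6.48 with *E. coli* MVs and 5.06 in mock. The difference in tags inside peaks sets the scale of every ratio in this comparison. Scaled to all tags, a site with an equal share of the tags in peaks has a log2 ratio of 2.39, so scaling to the tags in all peaks lowers each log2 ratio by 2.39. Ratios are given below on the scale of all tags. Any log2 ratio of tags under 2.39, also per 1000 bp of called peak, is negative on the other scale. The text repeats this for some values only, so a value without that remark need not keep its direction.

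Most peaks were called in 1 library only. Of the peaks with *E. coli* MVs, 24389 (25.9%) shared at least 1 bp with a mock peak and 69836 (74.1%) did not. Of the mock peaks, 25742 (38.8%) shared at least 1 bp with a peak of the *E. coli* MV library and 40687 (61.2%) did not. Shared peaks had a median normalized tag count of 30.4 with *E. coli* MVs and 10.4 in mock. Peaks called in 1 library only had 17.7 with *E. coli* MVs and 8.98 in mock. A peak missing from a list is not a measured 0, because each list holds only the peaks that the caller returned. Brought to the depth of mock by all tags, none of the peaks found only with *E. coli* MVs dropped under 9 tags, the weakest listed in mock. This was fixed in advance, since no peak with *E. coli* MVs held under 6 tags and mock was 1.83 times as deep. Brought to mock by tags in all peaks, 74.8% of the peaks found only with *E. coli* MVs dropped under 9 tags. Of the peaks found only in mock, 16.3% dropped under 6 tags, the weakest listed with *E. coli* MVs, when brought to that library's depth by all tags, and 83.2% under 9, the threshold in its header. By tags in all peaks none could, because that scaling raises every mock count 2.86 times and no mock peak held under 9 tags.

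The input under the peaks also differed between the lists. The caller needs 4-fold over input, and the mean of the input library over the genome was 5 tags per 1000 bp at the depth to which the authors scaled it. Input lay under that nominal value in 61.5% of the peaks found only with *E. coli* MVs, against 98.1% of those found only in mock. In shared peaks it did so in 59.4% with *E. coli* MVs and 89.0% in mock. The 4-fold rule itself caps the input under a peak by the peak's own tag density. Peaks found only in mock had a median of 16.6 normalized tags per 1000 bp, against 27.5 for those found only with *E. coli* MVs. The cap is thus lower in mock, and these shares are partly set by the caller. Beyond this rule, the part of the input in these calls was not tested.

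Joining the peaks of both lists gave 24277 shared regions, 69836 regions called only with *E. coli* MVs and 40687 called only in mock. Regions with *E. coli* MVs lay more often at promoters. Within 1 kb of a protein-coding TSS lay 21.3% of regions seen only with *E. coli* MVs, 28.2% of shared regions and 6.99% of those seen only in mock. Their exact intervals do not overlap. An H3K4me3 peak of mock cells, a mark that the FAIRE lists did not use, overlapped 13.6% of regions seen only with *E. coli* MVs, 23.4% of the shared regions and 1.46% of those called only in mock. Within 1 kb of a TSS these shares were 44.1% with *E. coli* MVs only, 59.6% shared and 5.69% in mock only. Over 1 kb from a TSS they were 5.26% with *E. coli* MVs only, 9.21% shared and 1.14% in mock only. The H3K4me3 list of cells with *E. coli* MVs gave 17.7% with *E. coli* MVs only, 29.2% shared and 2.47% in mock only over all distances. The FAIRE list with *V. cholerae* MVs held a peak at 33.4% of regions seen only with *E. coli* MVs, 57.4% of the shared regions and 17.5% of those called only in mock.

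Over the 24277 shared regions, the normalized tag count was higher with *E. coli* MVs in 93.1%, with a median log2 ratio of 1.42 (95% interval of the median over regions 1.40 to 1.46). The lower and upper quartiles of the ratio were 0.61 and 2.52. By more than counting error, 14466 regions (59.6%) were higher with *E. coli* MVs and 65 (0.268%) were lower, where the exact 95% interval of the ratio of tags lies wholly on one side of equality. By tags in all peaks the median was −0.97, with 3393 regions (14.0%) higher and 11624 (47.9%) lower with *E. coli* MVs. Both called width and tag density were higher with *E. coli* MVs on the scale of all tags. The median width of a shared region was 978 bp with *E. coli* MVs and 500 bp in mock, a median log2 ratio of width of 0.65. The median log2 ratio of tag density, per 1000 bp of called peak, was 0.68, and −1.71 by tags in all peaks.

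The ratio was highest at promoters and lower farther from the TSS. Within 1 kb of a TSS, 6850 shared regions had a median log2 ratio of 2.57 (2.52 to 2.61), with median normalized tag counts of 82.4 with *E. coli* MVs and 12.4 in mock. At 1 to 10 kb the median was 1.22 (n = 7644), at 10 to 100 kb it was 1.00 (n = 8229), and beyond 100 kb it was 0.88 (n = 1554). By tags in all peaks, only the class within 1 kb had a median above 0, at 0.18, and the other classes lay at −1.17, −1.39 and −1.52. The difference between the class within 1 kb and that at 10 to 100 kb, 1.57, does not depend on the scaling. Median widths with *E. coli* MVs were 1522 bp within 1 kb and 765 bp at 10 to 100 kb, against 500 bp in mock at both distances.

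**Figure D2:**
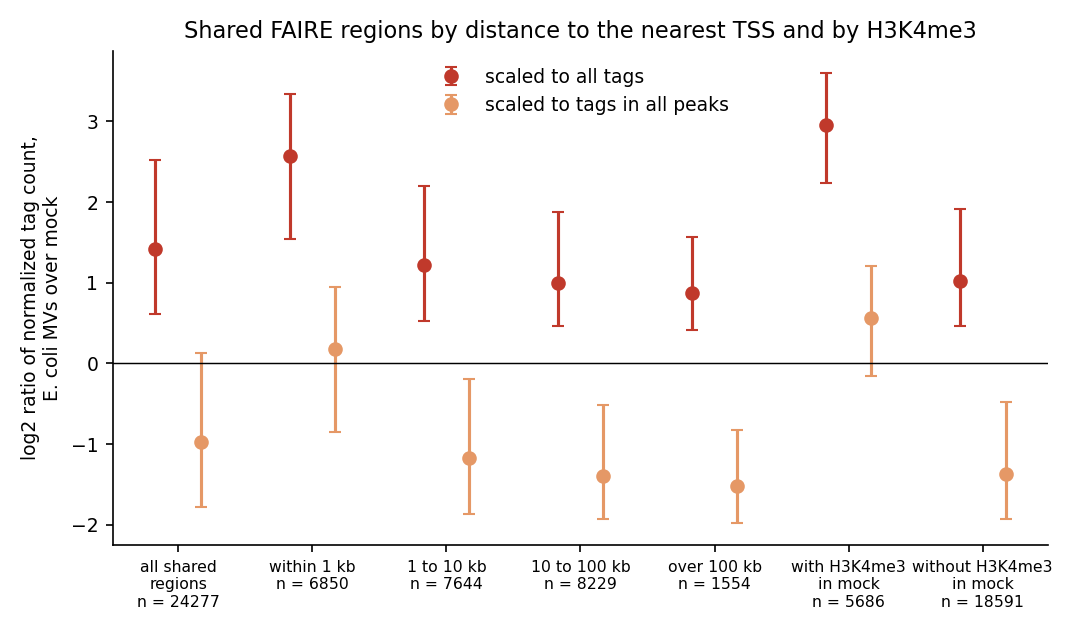
Log2 ratio of the normalized FAIRE tag count, *E. coli* MVs over mock (y axis), in shared regions by distance to the nearest protein-coding TSS and by overlap with an H3K4me3 peak of mock cells (x axis, number of regions under each label). Points are medians and bars the middle 50% of regions, scaled to all tags or to the tags in all peaks. The median was 2.57 within 1 kb and 0.88 beyond 100 kb on the scale of all tags.

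Shared regions with an H3K4me3 peak in mock cells had a median log2 ratio of 2.95 (n = 5686), and those without had 1.02 (n = 18591). The split held at the same distance. Within 1 kb of a TSS the medians were 3.07 with the mark and 1.46 without it, and over 1 kb they were 2.52 and 0.98. Per 1000 bp of called peak the split was narrower. It was 1.54 with the mark and 0.61 without it within 1 kb, and 1.08 and 0.59 over 1 kb. By tags in all peaks, regions with the mark kept medians above 0 at both distances (0.68 and 0.13) and regions without it had medians below 0. By place in protein-coding genes, regions centred in an untranslated exon had a median log2 ratio of 2.34 and those in a coding exon 1.75. Those in an intron had 1.34 and those outside protein-coding genes 1.18. By mock level, the ratio differed less than by distance. From the lowest to the highest quartile of the mock level, the medians were 1.38, 1.35, 1.34 and 1.70. Across shared regions the levels of the libraries had a Spearman correlation of 0.35 and a Pearson correlation of 0.44 on the log2 scale (24277 regions of 1 library each, which are not independent replicates).

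GC content moved with the ratio. Shared regions within 1 kb of a TSS had a median log2 ratio of 1.61 in the lowest GC quartile and 3.07 in the highest, measured over the centre 300 bp. Regions over 1 kb from a TSS had 0.74 (0.72 to 0.75) and 1.82 (1.77 to 1.88). Per 1000 bp of called peak, the range over these quartiles was 0.72 to 1.52 within 1 kb and 0.55 to 0.70 beyond it. Median GC content was 57.3% in regions called only with *E. coli* MVs, 57.3% in shared regions and 49.7% in those called only in mock. The gap was present at promoters too, where it was 63.0% with *E. coli* MVs only and 51.0% in mock only. GC content also differs between promoters, regions with H3K4me3 and other regions, and its part in the ratios was not tested.

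**Figure D3:**
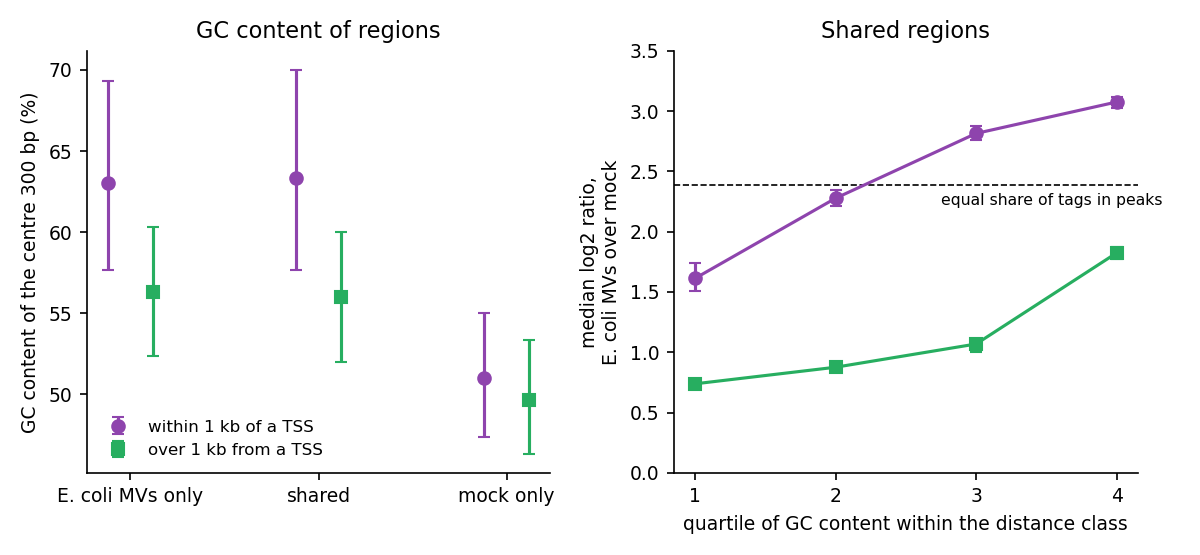
Left, GC content of the centre 300 bp (y axis, %) of regions called only with *E. coli* MVs, shared, or called only in mock (x axis), within 1 kb of a TSS (circles) and over 1 kb from it (squares), as medians with the middle 50% of regions. Right, median log2 ratio of shared regions, *E. coli* MVs over mock (y axis), by quartile of GC content within the distance class (x axis), with 95% intervals of the median and a dashed line at 2.39, where a region has an equal share of the tags in peaks. Medians were higher in the highest GC quartile than in the lowest at both distances (3.07 against 1.61 within 1 kb).

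The share of regions with a short motif differed between the groups of regions, in both directions, and also with GC content. Motifs were searched in the centre 300 bp on both strands, and a match describes letters only. The SP/KLF motif GGGCGG, bound by factors of GC-rich promoters, lay in 46.2% of promoter regions called only with *E. coli* MVs, 48.8% of shared ones and 11.3% of those called only in mock, against 42.9% of all regions within 1 kb of a TSS. In distal regions with the lowest GC content its shares were 3.90% with *E. coli* MVs only and 3.87% in mock only. In all distal regions, the NFY motif CCAAT lay in 27.2% with *E. coli* MVs only and 33.6% in mock only, and the GATA motif AGATAA in 7.43% with *E. coli* MVs only and 12.5% in mock only. In the lowest GC quintile the gaps were small, at 36.1% with *E. coli* MVs only and 37.6% in mock only for CCAAT and 17.7% with *E. coli* MVs only and 17.4% in mock only for AGATAA. The AP-1 motif TGANTCA, bound by JUN and FOS dimers, lay in 11% of distal regions called only with *E. coli* MVs, 10.3% of shared ones and 9.16% of those called only in mock, against 10.3% of all distal regions. Within the quintile of distal regions with the lowest GC content, chosen after its values were seen, the shares were 23.3% (95% interval 22.2 to 24.5) with *E. coli* MVs only, 16.3% (14.6 to 18.0) in shared regions and 10.5% (9.99 to 10.9) in mock only, against 13.7% of all regions of that quintile. In the same quintile, the TEAD motif GGAATG lay in 22.6% with *E. coli* MVs only and 18.4% in mock only, and the TCF/LEF motif ATCAAAG in 6.49% with *E. coli* MVs only and 4.61% in mock only. In the quintile with the highest GC content the AP-1 shares were 5.51% with *E. coli* MVs only, 5.94% in shared regions and 4.47% in mock only. The CTCF core motif lay in 9.85% of distal regions with *E. coli* MVs only and 5.22% of those in mock only, and in the lowest GC quintile in 3.86% with *E. coli* MVs only and 3.21% in mock only. Among shared distal regions, those with an AP-1 motif had a higher median log2 ratio than those without. The gap was 0.24 in the lowest GC quartile (n = 649 with the motif) and 0.21 in the highest (n = 258). In the quartiles between them it was 0.12 and 0.21. Such gaps were not particular to AP-1. For the SP/KLF motif the gap was 0.14 in the lowest quartile and 0.26 in the highest. For an NF-kB motif it was 0.38 in the lowest, with only 29 regions holding the motif. For the NFY motif it was −0.08 in the lowest and −0.01 in the highest.

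The low-GC distal regions with an AP-1 motif and the most tags, called only with *E. coli* MVs, are printed because AP-1 had the widest gap in share there among the 11 motifs searched. They are named for the nearest protein-coding gene, which may not be their target. Capitals mark TGANTCA on either strand.
ASAP2, chr2:9319510-9319709: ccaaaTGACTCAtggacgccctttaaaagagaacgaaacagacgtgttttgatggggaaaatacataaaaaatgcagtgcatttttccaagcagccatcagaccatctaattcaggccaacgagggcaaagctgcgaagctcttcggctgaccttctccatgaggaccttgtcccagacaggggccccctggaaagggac
LYZL4, chr3:42463702-42463901: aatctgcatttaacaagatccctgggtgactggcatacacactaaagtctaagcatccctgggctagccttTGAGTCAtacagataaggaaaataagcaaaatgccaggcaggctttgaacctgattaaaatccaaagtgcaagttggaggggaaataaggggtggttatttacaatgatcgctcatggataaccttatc
MCTP2, chr15:94372743-94372942: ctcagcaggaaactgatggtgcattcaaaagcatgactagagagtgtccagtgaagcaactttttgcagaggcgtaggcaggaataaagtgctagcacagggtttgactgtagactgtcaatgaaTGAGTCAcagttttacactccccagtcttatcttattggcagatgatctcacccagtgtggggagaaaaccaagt

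These regions held 88 tags near ASAP2, 69 near LYZL4 and 69 near MCTP2 with *E. coli* MVs, and had no listed peak in mock. All of them are centred outside protein-coding genes. The FAIRE list with *V. cholerae* MVs held a peak at each of them.

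The highest and the lowest shared regions above the median of summed tags differed in width as well as in place. The highest was the MKNK2 region on chromosome 19 (2037925 to 2052507), 14582 bp wide with *E. coli* MVs and 500 bp in mock, with a log2 ratio of 6.41 (5.59 to 7.37) and of 1.54 per 1000 bp of called peak. It was followed by a region 37428 bp from the TSS of KRT80, an epithelial keratin gene, with 571 tags with *E. coli* MVs against 14 in mock (6.23), and by regions at PRRT2 (6.08), SH3GL1 (6.03) and ZBTB7A (5.94). All of these carried H3K4me3 in mock cells, and stay above 0 by tags in all peaks. Per 1000 bp of called peak, the log2 ratios of the 5 were 1.51 to 1.75. The lowest shared regions included those near ZNF503 (−1.88), TIAM2 (−1.85), SPAG9 (−1.75) and ERCC6L2 (−1.71). Each was 500 bp wide with *E. coli* MVs and 2093 to 2410 bp wide in mock, where it held 48 to 68 tags, and none carried H3K4me3 in mock cells. With 8 to 11 tags with *E. coli* MVs, their 95% intervals still lay below 0 (ZNF503 −3.16 to −0.80). Per 1000 bp of called peak, each of them was higher with *E. coli* MVs, by 0.25 to 0.52 on the log2 scale of all tags.

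Among regions called only with *E. coli* MVs, those with the most tags lay near ZNF337 (631 tags, described above), ING1 (518), FAM89B (501), SLC2A8 (452) and HNRNPL (450). The last 4 are 4180 to 10047 bp wide, carry H3K4me3 in mock cells and have a FAIRE peak with *V. cholerae* MVs. They hold promoters of a tumour suppressor that binds H3K4me3 (ING1), a sugar transporter (SLC2A8) and a splicing regulator (HNRNPL). The strongest regions called only in mock were weaker, at 63 tags near JPH1, 62 near DNMT3A, 60 near CES3, 60 near TMEM163 and 59 near RASL11B. Their widths were 1826 to 3039 bp, and of these 5 only the CES3 region overlapped an H3K4me3 peak of mock cells.

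Very wide peaks were a feature of the *E. coli* MV library. Peaks of 5000 bp or more, a limit set after the sizes were seen, numbered 949 with *E. coli* MVs and 0 in mock, with 10 in the list with *V. cholerae* MVs. They were 1.01% of the peaks with *E. coli* MVs and held 7.14% of the tags in peaks. A TSS of a protein-coding gene lay in or within 1 kb of 70.6% of them, against 19.1% of the other peaks. An H3K4me3 peak of mock cells overlapped 60.9% of them, against 15.6% of the others. A mock FAIRE peak overlapped 78.0% of them, against 25.4% of the others. A FAIRE peak with *V. cholerae* MVs overlapped 92.4% of them, against 38.7% of the others. A longer peak has more room to overlap any feature, and the part of length in these shares was not tested. The wide peaks had a median GC content of 62.3%, against 56.6% in the others. The widest covered the plectin gene PLEC on chromosome 8 (23452 bp, 1394 tags), whose product links keratin filaments to hemidesmosomes, and LAMA5 on chromosome 20 (22061 bp, 884 tags), which encodes a laminin chain of basement membranes. Inside the PLEC peak the mock list had 6 peaks of 3987 bp in all, with a summed normalized tag count of 84.3, against 1767 for the whole peak with *E. coli* MVs. The next were at BAIAP2 (18345 bp), an adaptor of the actin cytoskeleton, RXRA (17285 bp), the partner of many nuclear receptors, and PIM3 (17187 bp), a serine/threonine kinase. RARA, a retinoic acid receptor, had a peak of 13759 bp with 460 tags, in which mock had 3 peaks.

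On the chromosomes, the shared regions had medians between 0.98 on chromosome 13 and 1.93 on chromosome 19 among the autosomes. Chromosome 19 held 4354 regions called only with *E. coli* MVs against 1143 called only in mock, while chromosome 13 held 1436 only with *E. coli* MVs against 1513 only in mock. Chromosome X held 700 only with *E. coli* MVs and 50 only in mock, with 95 shared regions at a median log2 ratio of 2.42.

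At the genes, 15620 of 20090 protein-coding genes (77.8%) had a FAIRE peak within 1000 bp of a TSS with *E. coli* MVs, against 8387 (41.7%) in mock. Both libraries had a peak at 7990 genes, only the library with *E. coli* MVs at 7630 (38.0%) and only mock at 397 (1.98%). The value of a gene is the summed normalized tag count of these peaks, over their whole length. Over the 7990 genes the median log2 ratio was 3.07 (3.03 to 3.10), and 7579 (94.9%) were higher with *E. coli* MVs by more than counting error and 8 (0.100%) lower. By tags in all peaks the median was 0.68, with 4042 genes (50.6%) higher and 952 (11.9%) lower. At 1393 of the 7990 genes (17.4%), no peak of one library overlapped a peak of the other, so their ratios set separately called sites near a TSS side by side. Counting only peaks that overlap between the libraries gave a median of 2.79, and tags per 1000 bp of called peak gave 1.27. Since nearly all genes lay above mock, the gene lists are read against 3.07. Their counts of members outside counting error are read against 94.9% higher on the scale of all tags. By tags in all peaks they are read against 50.6% higher and 11.9% lower. Their counts of members with a peak are read against 77.8% with *E. coli* MVs and 41.7% in mock. The members were chosen with earlier results of these data known.

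Genes with H3K4me3 in mock cells had FAIRE peaks more often in both libraries. Of 7949 genes with no H3K4me3 peak in mock, 3742 had a FAIRE peak with *E. coli* MVs and 1889 in mock, and the median log2 ratio over the 1539 genes with both was 2.13, which lies below 0 (−0.26) when scaled to the tags in all peaks. In the quartiles of H3K4me3 level the medians were 3.15, 3.24, 3.24 and 3.24, from low to high. Of the 3035 genes in the highest quartile, 3022 had a FAIRE peak with *E. coli* MVs against 1637 in mock. Across the 6433 genes with FAIRE and H3K4me3 peaks in both treatments, the FAIRE and H3K4me3 log2 ratios had a Spearman correlation of 0.23, a description over genes of 1 library each.

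Over all genes, the highest ratios above the median of summed tags included those of KCNQ1, NHERF2, CARS2 and MKNK2. KCNQ1, a potassium channel of epithelia and heart on chromosome 11 (2465884 to 2870335), held 621 tags with *E. coli* MVs against 11 in mock, a log2 ratio of 6.69 (5.85 to 7.70). The peaks behind these ratios were wide. KCNQ1 had 19725 bp of called peak with *E. coli* MVs and 500 bp in mock, and its log2 ratio per 1000 bp was 1.39. NHERF2 (6.47), a scaffold of apical membrane proteins, CARS2 (6.43), the mitochondrial cysteinyl-tRNA synthetase, and MKNK2 (6.41) followed, and the CARS2 peaks did not overlap. The lowest ratios were those of IRF8, a transcription factor of blood cells, with 52 tags with *E. coli* MVs against 96 in mock (−0.01, −0.52 to 0.49), and ANXA6, an annexin, with 59 tags with *E. coli* MVs against 105 in mock (0.04, −0.44 to 0.52). Both were within counting error of mock. NECAP2 (0.55), CALCOCO1 (0.65) and UBL7 (1.00) were next, and all 5 lie below 0 when scaled to the tags in all peaks. Their called peaks were narrower than in mock, and per 1000 bp their log2 ratios were 1.11 to 2.23 on the scale of all tags. Over overlapping peaks only, IRF8 had 1.77 and ANXA6 −1.45.

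Most tags with no mock peak within 1000 bp of a TSS were found at CRIP2 (1003 tags with *E. coli* MVs), RAB26 (838), CRIP1 (836), ENSG00000257341 (836) and KIF22 (713). CRIP1, CRIP2 and ENSG00000257341 share a peak of 16934 bp on chromosome 14, so their values are not separate measurements. Farther from the TSSs, 2 mock peaks lay inside that peak. The wide peak at KIF22 is the shared region named above for PRRT2, with 16 mock tags. Genes with a peak only in mock held fewer tags, at most 44 at ACSBG2, an acyl-CoA synthetase, with FNDC1 (41), KIAA1217 (41), CCDC81 (39) and ALPK2 (38) next. The 8 genes lower with *E. coli* MVs by more than counting error, named after their values were seen, were TRAF3IP2, FGF6, FSTL1, MEIS1, ATP6V1B1, BPI, THEM5 and ZNF649. TRAF3IP2, the adaptor of the interleukin-17 receptor, held 10 tags with *E. coli* MVs against 59 in mock (−1.69), and BPI, which encodes a protein that binds lipopolysaccharide, held 13 tags with *E. coli* MVs against 48 in mock (−1.01). The direction of all 8 depends on the measure, since per 1000 bp of called peak their log2 ratios were 0.16 to 0.52. Over overlapping peaks only, TRAF3IP2 had −0.80, BPI 0.05 and MEIS1 0.24, THEM5 and ZNF649 kept their values, and FGF6, FSTL1 and ATP6V1B1 had no overlapping peaks.

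The 13 genes named by the study that are described here all had a FAIRE peak at a TSS with *E. coli* MVs, and 9 of them had one in mock. The study chose them from expression in these treatments, so they are not an independent set of genes. It reported VDR and other genes of epithelial differentiation as raised in expression by *V. cholerae* MVs only, which is another measure than FAIRE. JUN, a subunit of AP-1 on chromosome 1 (59242517 to 59249720), had a normalized tag count of 344 with *E. coli* MVs and 16.6 in mock, a log2 ratio of 4.37 (3.77 to 5.04). Of the 41 mock tags in the joined JUN region, 24 lay in peaks within 1000 bp of the TSS, and over the whole region the log2 ratio was 3.60. MAP3K14, the kinase of noncanonical NF-kB signalling on chromosome 17, had 347 with *E. coli* MVs and 8.98 in mock (5.27), in peaks that did not overlap between the libraries. LTB, which encodes lymphotoxin beta, had 88.7 with *E. coli* MVs and no listed peak in mock. ALDH1A3, an enzyme of retinoic acid synthesis, had 72.3 with *E. coli* MVs and 16.6 in mock (2.12, 1.41 to 2.88, and 0.88 over overlapping peaks), which lies below 0 (−0.27) when scaled to the tags in all peaks.

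Of the study's cell cycle genes, CCND1, which encodes cyclin D1, had the largest ratio, with 420 with *E. coli* MVs and 8.29 in mock (log2 ratio 5.66, 4.84 to 6.63). CDK6, the kinase that cyclin D1 activates, had 199 with *E. coli* MVs and 35.9 in mock (2.47), close to the ratio of equal shares of the tags in peaks. CDKN1B, the inhibitor p27, had 189 with *E. coli* MVs and 11.1 in mock (4.09), in peaks that did not overlap. KRT80, a keratin gene, had 355 with *E. coli* MVs and 13.8 in mock (4.68). TJP1, which encodes a tight junction scaffold, had 100 with *E. coli* MVs and 12.4 in mock (3.01), also in peaks that did not overlap. VDR (chromosome 12, 48235320 to 48336831), a nuclear receptor that binds vitamin D, had 325 with *E. coli* MVs and 34.5 in mock (3.23). SKIL, a repressor of TGF-beta signalling, had 110 with *E. coli* MVs, SOCS2, a suppressor of cytokine signalling, had 311, and RND3, a small GTPase gene, had 171. None of these 3 had a listed mock peak at a TSS. For SOCS2 and RND3, the study reported that *V. cholerae* MVs raised accessibility at the TSS and that *E. coli* MVs had no such effect. The peak lists used here differ from that reading, and the reason was not tested.

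**Figure D4:**
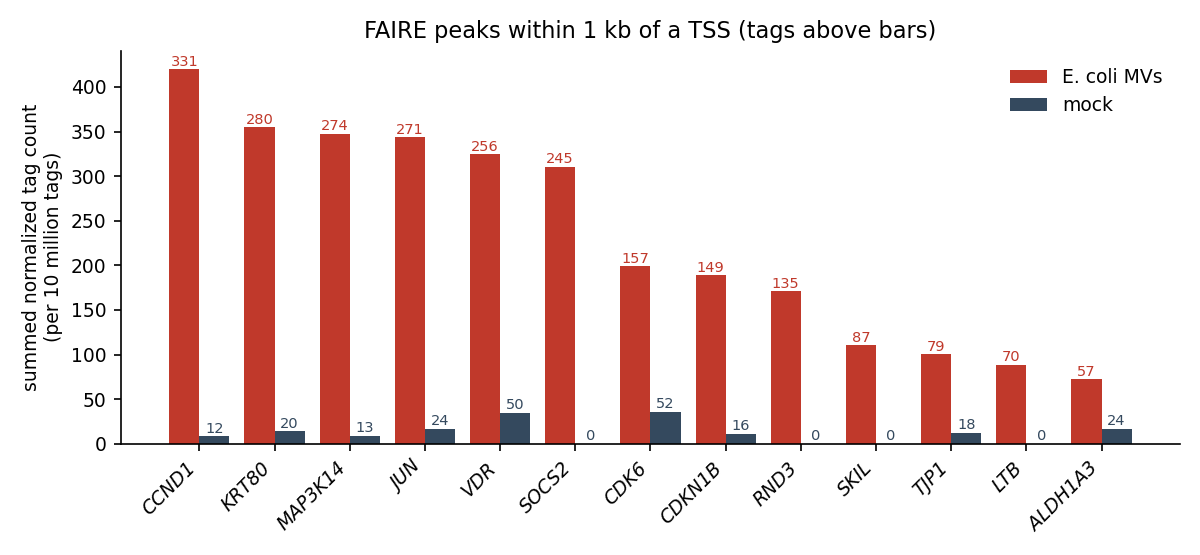
Summed normalized FAIRE tag count (y axis, tags per 10000000 of the library) of peaks within 1 kb of a TSS for 13 genes named in the study (x axis), with *E. coli* MVs (left bars) and in mock (right bars), 1 library each, with whole tags above the bars. The bars with *E. coli* MVs run from 72.3 at ALDH1A3 to 420 at CCND1, and 4 genes have no listed mock peak (marked 0).

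Around these genes, within 50 kb on either side, a window chosen after the data were seen, listed peaks were summed, and a region not called in a library adds nothing to its sum. At KRT80, 32 regions had a summed normalized tag count of 2307 with *E. coli* MVs and 193 in mock, and 29 of them lay over 1 kb from a TSS, with 2035 with *E. coli* MVs and 169 in mock. At VDR, 43 regions had 1730 with *E. coli* MVs and 222 in mock. At CCND1, 27 regions had 1581 with *E. coli* MVs and 145 in mock. Distal regions near CDKN1B summed to 31.7 with *E. coli* MVs and 41.5 in mock, and of the 8 regions at this locus 2 were called only with *E. coli* MVs and 4 only in mock, so no direction is read from these sums. At RND3 the only region was the promoter peak with *E. coli* MVs, 2915 bp wide.

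AP-1 and immediate early genes encode transcription factors and signalling regulators that cells switch on within minutes of a stimulus. All 26 had a FAIRE peak with *E. coli* MVs, against 77.8% of all genes, and 11 (42.3%) had one in mock, against 41.7% of all genes, with a median log2 ratio of 3.28 over these 11, against 3.07 over all genes. All 11 were higher by more than counting error, against 94.9% of all genes with a peak in both libraries. When scaled to the tags in all peaks 8 of them were, against 50.6% of all such genes. IER2 had 578 with *E. coli* MVs and 13.8 in mock (5.39), and KLF4, a factor of differentiating epithelium, had 266 with *E. coli* MVs and 8.29 in mock (5.00). EGR2 was lowest, with 188 with *E. coli* MVs and 40.8 in mock (2.20), followed by DUSP1, a phosphatase of MAP kinases (2.81), and the EGR2 ratio lies below 0 when scaled to the tags in all peaks. KLF10 (373 tags) and FOSL2 (325 tags) had the most tags among the 15 members with no listed mock peak.

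NF-kB and TNF target genes carry inflammatory signals. Of 30, 27 had a FAIRE peak with *E. coli* MVs and 15 in mock, with a median log2 ratio of 3.73. All 15 were higher by more than counting error, against 94.9% of all genes with a peak in both libraries. By tags in all peaks 10 were higher and 1 lower, against 50.6% higher and 11.9% lower of all such genes. BCL3, a nuclear partner of NF-kB subunits, had 407 with *E. coli* MVs and 8.29 in mock (5.62), ahead of MAP3K14 (5.27), both in peaks that did not overlap, and TRAF1 (1.73) and NFKBIZ (2.13) were lowest and fall below 0 when scaled to the tags in all peaks. NFKBIA, the inhibitor of NF-kB that its own target turns on, had 233 with *E. coli* MVs and RELA, an NF-kB subunit, had 209, with no listed mock peak. CXCL8, CCL20 and IL1B, which encode a neutrophil chemokine, an epithelial chemokine and interleukin 1 beta, had no listed FAIRE peak at a TSS in either library. Counting only overlapping peaks, the median of this list was 2.84, against 2.79 over all genes.

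Genes that sense bacterial products include Toll-like receptors, NOD proteins and their adaptors. Of 18, 13 (72.2%) had a FAIRE peak with *E. coli* MVs, near the 77.8% of all genes, and 4 (22.2%) in mock, against 41.7% of all genes. The highest of these 4 was TLR5, the flagellin receptor, with 185 with *E. coli* MVs and 8.29 in mock (4.48), followed by the adaptor gene TIRAP (3.18), but at both genes the peaks of the libraries did not overlap. NOD2, which senses a fragment of peptidoglycan, had 115 with *E. coli* MVs and 30.4 in mock (1.92, and 0.63 over overlapping peaks), and RIPK2, its kinase, had 72.3 with *E. coli* MVs and 11.7 in mock (2.62), and the NOD2 ratio lies below 0 when scaled to the tags in all peaks. MYD88, the adaptor of most Toll-like receptors, had 404 with *E. coli* MVs and IRAK4, the kinase it recruits, had 115, with no listed mock peak. TLR1, TLR3, TLR4, TLR6 and CASP1 had no listed peak in either library, TLR4 being the receptor of lipopolysaccharide.

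Interferon response genes had peaks at 13 of 18 members with *E. coli* MVs and at 11 in mock, with a median log2 ratio of 3.02 over the 10 with both. ISG15, a ubiquitin-like protein, had 470 with *E. coli* MVs and 14.5 in mock (5.02), and IRF9 (3.44, in peaks that did not overlap) was next. IFIH1 (1.55) and IFI6 (2.10) were lowest and fall below 0 when scaled to the tags in all peaks. IRF1 had 458 and IRF2 250 with *E. coli* MVs and no listed mock peak. OAS1, an antiviral enzyme gene, had 2 peaks with 25 tags in all in mock and none listed with *E. coli* MVs. IFIT1, IFIT2, IFIT3 and IFI44 had no listed peak in either library.

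**Figure D5:**
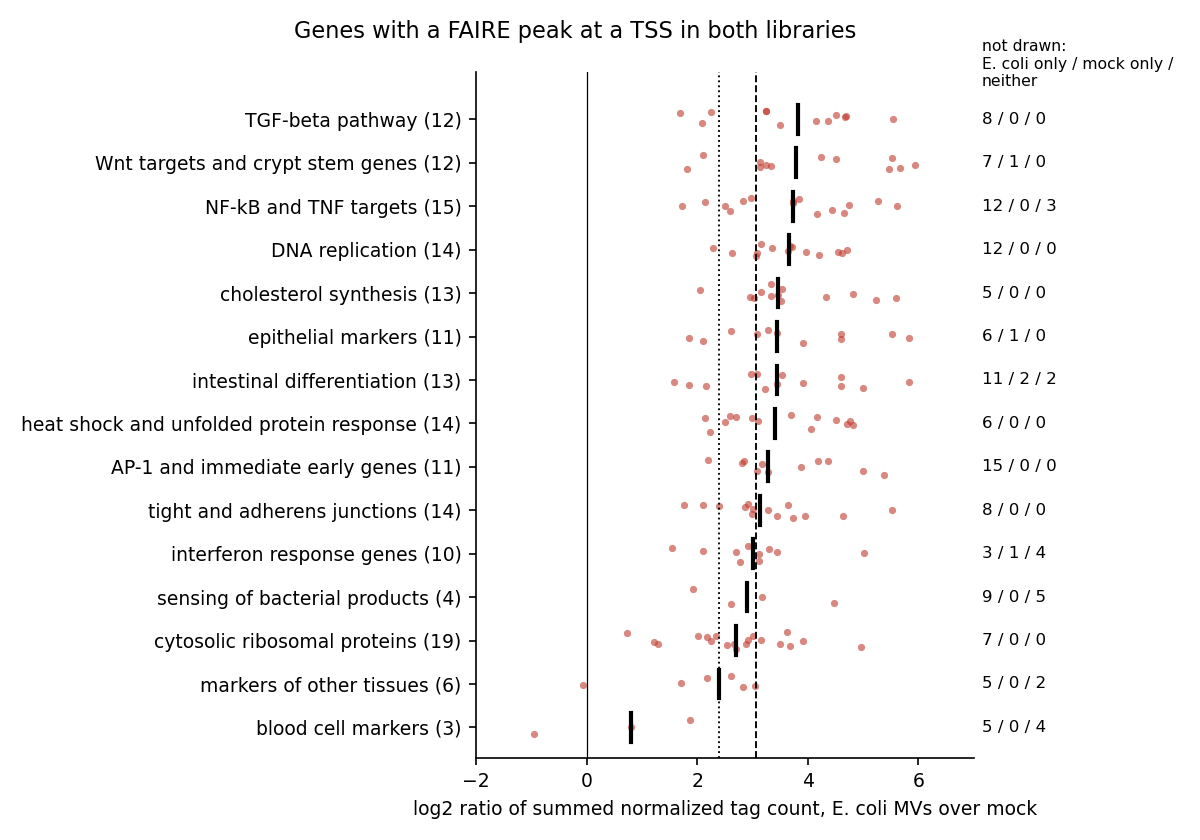
Log2 ratio of the summed normalized FAIRE tag count at TSSs, *E. coli* MVs over mock (x axis), for members with a peak in both libraries (points, number in brackets) of 15 gene lists (y axis), with list medians as black bars. The dashed line marks the median of all genes (3.07) and the dotted line the ratio of equal shares of the tags in peaks (2.39). The columns at the right count members with a peak only with *E. coli* MVs, only in mock, or in neither. Blood cell markers have the lowest median (0.81 over 3 genes) and TGF-beta genes the highest (3.82 over 12).

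Genes of intestinal differentiation had FAIRE peaks at 24 of 28 members with *E. coli* MVs and at 15 in mock, with a median log2 ratio of 3.44 over the 13 with both. KRT8, the main keratin of simple epithelia, had 629 with *E. coli* MVs and 11.1 in mock (5.83, and 4.64 over overlapping peaks), ahead of KLF4 (5.00). HNF4A, a master factor of the enterocyte, had 115 with *E. coli* MVs and 31.8 in mock (1.86), and ATOH1, the factor of secretory cells, had 22.8 with *E. coli* MVs and 7.60 in mock (1.59, in peaks that did not overlap), both below 0 when scaled to the tags in all peaks. GATA6 (396) and CDX2 (299), intestinal transcription factors, had no listed mock peak. KRT20 and MUC13, genes of mature enterocytes and of a cell-surface mucin, had 10.4 and 8.29 in mock and no listed peak with *E. coli* MVs.

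Of the genes for tight and adherens junctions, all 22 had a peak with *E. coli* MVs and 14 in mock, with a median log2 ratio of 3.14. CLDN4, a sealing claudin, had 412 with *E. coli* MVs and 8.98 in mock (5.52, and 3.42 over overlapping peaks), and NECTIN1 had 4.65. CTNNB1, which encodes beta-catenin, had 96.3 with *E. coli* MVs and 28.3 in mock (1.77), and CDH1, E-cadherin, had 167 with *E. coli* MVs and 38.7 in mock (2.11), both below 0 when scaled to the tags in all peaks. TJP3 (449) and PARD6B (379) had no listed mock peak. Wnt targets and crypt stem genes had peaks at 19 of 20 members with *E. coli* MVs and 13 in mock, with a median of 3.78. EPHB3, a receptor that positions crypt cells, had 423 with *E. coli* MVs and 6.91 in mock (5.94), which became 1.25 over overlapping peaks only. CCND1 (5.66) was next, and TCF7L2, the main Wnt effector of the gut, had 226 with *E. coli* MVs and 64.3 in mock (1.81), with EPHB2 (2.10, in peaks that did not overlap) the next lowest, both below 0 when scaled to the tags in all peaks. ZNRF3 (235) and MYC (219) had no listed mock peak, and OLFM4, a crypt stem cell marker, had 8.29 in mock only.

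The TGF-beta list had peaks at all 20 members with *E. coli* MVs and at 12 in mock, with a median log2 ratio of 3.82, the highest of the 15 lists drawn in the plot of gene lists. SKI, a repressor of SMAD proteins, had 482 with *E. coli* MVs and 10.4 in mock (5.54), and SMAD7, an inhibitor of the receptor, had 427 with *E. coli* MVs and 16.6 in mock (4.69). TGFB2 (1.69) and BMP2 (2.08), both ligands, were lowest and fall below 0 when scaled to the tags in all peaks. Among genes with no listed mock peak, TGFB1 had 312 and TGFBR2 231 with *E. coli* MVs. Over overlapping peaks SKI had 4.52 and SMAD7 3.81, and the BMP2 peaks did not overlap. Per 1000 bp of called peak, the list's median was 1.32, against 1.27 over all genes.

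DNA replication genes had peaks at all 26 members with *E. coli* MVs and 14 in mock (median log2 ratio 3.66), led by MCM3, a subunit of the replicative helicase, with 162 with *E. coli* MVs and 6.22 in mock (4.71), and by ORC6 (4.61), while MCM4 (2.29, below 0 by tags in all peaks) and CDC45 (2.63) were lowest. The MCM3 and ORC6 peaks did not overlap between the libraries, and over overlapping peaks MCM4 had 3.05 and CDC45 3.56. CDT1 (512) and POLE (309) had no listed mock peak. Cholesterol synthesis genes had peaks at all 18 members with *E. coli* MVs and 13 in mock (median 3.46), led by MVD (5.6) and DHCR7 (5.24), with SC5D (2.05, below 0 by tags in all peaks) and IDI1 (2.96) lowest, and with SREBF2 (352) called only with *E. coli* MVs. Of these 13, 12 were higher by more than counting error also when scaled to the tags in all peaks, against 50.6% of all genes. Heat shock and unfolded protein genes had peaks at all 20 members with *E. coli* MVs and 14 in mock (median 3.41), from ATF4 (2.15) and BAG3 (2.23), both below 0 by tags in all peaks, to CALR (4.77) and DNAJB1 (4.82), a partner of HSP70. The peaks at BAG3 and CALR, and those at DHCR7, did not overlap, and DNAJB1 had 4.07 over overlapping peaks. HSP90AA1 (406) and PDIA4 (404) had no listed mock peak. Cytosolic ribosomal protein genes had peaks at all 26 members with *E. coli* MVs and 19 in mock, with a median of 2.70, under that of all genes. RPL18 (4.96) and RPL15 (3.92) were highest. RPS9, with 69.7 with *E. coli* MVs and 42.1 in mock (0.73), and RPL23 (1.23) were lowest. By tags in all peaks 7 members were higher and 3 lower, against 50.6% and 11.9% of all genes. RPL8 (399) and RPL35 (293) had no listed mock peak.

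The epithelial label of the cells was set against marker genes. Of 18 epithelial markers, 17 had a FAIRE peak at a TSS with *E. coli* MVs and 12 in mock, with a median log2 ratio of 3.44 over the 11 with both. KRT8 and CLDN4 were highest and HNF4A and CDH1 lowest, as above. EPCAM had 177 with *E. coli* MVs, and ESRP1, an epithelial splicing factor with 390, and CDX2 had the most tags among those with no listed mock peak. KRT20 was called only in mock. Of 12 blood cell markers, 8 had a peak with *E. coli* MVs and 3 in mock. PTPRC, CD3E, LYZ and HBB had none in either library, and those with peaks included CD8A (156 with *E. coli* MVs), SPI1 (97.6 with *E. coli* MVs), ITGAM (1.88) and CD4, with 13.9 with *E. coli* MVs and 26.9 in mock (−0.95, −2.06 to 0.04). Of 13 annotated markers of other tissues, 11 had a peak with *E. coli* MVs and 6 in mock, with a median of 2.39. They ran from CDH5 (−0.06) and RBFOX3 (1.71) to PDGFRB (2.83) and DES (3.05), with APOB (43.1) and SYN1 (41.8) called only with *E. coli* MVs and no listed peak at COL3A1 or ALB. Among these markers, the peaks at ITGAM, CD4, CDH5 and DES did not overlap, and over overlapping peaks RBFOX3 had 3.71 and PDGFRB 1.86. The background of 77.8% of all protein-coding genes with a peak with *E. coli* MVs applies to these counts.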

How the data were processed

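FAIRE sequencing of HCT8 cells was done in 1 library per treatment, and samples were grouped by their labels. The authors aligned reads to hg19 and called peaks per library with HOMER in histone mode against 1 input library. According to the processing notes of the submitters, HOMER 4.7.2, Bowtie 1.1.2 and SAMtools 1.3.1 were used, whereas the study's methods name Bowtie 2 and also MACS. The labels name ThruPLEX reagents for FAIRE libraries, and the methods another kit. Per the file headers, a peak needed 4 times the input tags, a Poisson p of 0.0001 and 1000 bp from the next, and the tag threshold was 9 with *E. coli* MVs and 12 in mock. The lists still held peaks at or under that tag threshold, 15.4% of them with *E. coli* MVs and 38.8% in mock. The deposited normalized tag count is a signal per 10000000 tags of the library, and the deposited total tags are counts. The deposited fold is the ratio of tags to scaled input tags, and the deposited input tags are a signal scaled to the FAIRE library. The authors' columns of p-values were not used.

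The list with *E. coli* MVs held 94231 peaks and the mock list 66436, of which those on chromosomes 1 to 22 and X were used. Overlapping peaks of the lists (1 bp or more) were merged into regions, and a region was given the summed value of its peaks in each library. Distances run from the region's centre to the nearest TSS of 20090 protein-coding genes (GENCODE release 44 on GRCh37). A gene was given the sum over peaks reaching within 1000 bp of one of its TSSs. Neighbouring genes can share a peak. Sequences were read from the GRCh37 reference.

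Intervals of shares are exact Clopper-Pearson 95% intervals, those of ratios come from the exact binomial distribution of the tags, and those of medians from ranked values treated as independent. They cover counting error only, or the spread between regions, and PCR copies are not independent tags. They do not allow for tags outside called peaks or for called lengths that differ between the libraries. With 14474665 tags at most and a median of 13 to 15 tags per peak, single peaks are imprecise. In simulated tags with 200 changed genes out of 7990, the interval found 98% of 2-fold changes and 73% of 1.5-fold changes. Both simulated libraries were drawn at the mean of a gene's levels with *E. coli* MVs and in mock. Genes with a peak had a median normalized tag count of 105 with *E. coli* MVs and 14.5 in mock. The simulated mock therefore held more tags than the real one, and recovery at the real mock counts was not simulated.

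The libraries, gene lists and tests were chosen with earlier results of these data known. Named are the genes of the study, of each list at most the 2 highest, 2 lowest and 2 with most tags in 1 library only, and over all genes and regions 5 of each kind, with highest and lowest taken above the median of summed tags. The 50 kb windows, the wide-peak limit, the low-GC motif regions and the TGACATCA motif were chosen after seeing values. Sequences that touch an exon of a protein-coding gene or lie on chromosome 8 were passed over. Alternatives changed the scaling, the peak threshold, the overlap, the window, the tag minimum and the chromosomes. Some items that the rule names are not reported here. The H3K4me3 list with *V. cholerae* MVs was not used here, and input entered only through the input and fold columns of the FAIRE lists. Python 3.11.15, numpy 2.4.6, pandas 2.3.3, scipy 1.17.1 and pysam 0.24.0 were used.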

Additional observations from a re-analysis of the deposited data

Results flagged for a closer look

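Mitochondrial DNA lay outside the comparisons, which used chromosomes 1 to 22 and X, and held many FAIRE tags. Its summed normalized tag count in called peaks was 19632 with *E. coli* MVs and 839 in mock. With *E. coli* MVs this was 1 peak of 15528 bp with 15487 tags, and in mock 3 peaks of 3555 bp with 1214 tags. Per 1000 bp of called peak, the values were 1264 with *E. coli* MVs and 236 in mock. In the FAIRE library with *V. cholerae* MVs the sum was 4696. With 1 library per treatment the difference was not tested.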

How the results depend on the processing

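No paired analysis was possible because no assay was repeated within a treatment. Of 48 alternative values, 17 stayed within the interval or within 1.5 times the count, 29 moved and 2 changed direction. By tags in all peaks the median log2 ratio over shared regions was −0.97 in place of 1.42 and that of tags per kb −1.71 in place of 0.68. The gene median was 0.68, with 4042 genes higher and 952 lower with *E. coli* MVs. With peaks at least 8-fold over input (27707 with *E. coli* MVs and 8724 in mock), the region median was 0.88, that of width 0.19, the difference between promoter and distal regions 1.32, and the gene median 3.22. The shares of shared peaks were 4.49% with *E. coli* MVs and 14.3% in mock, the shares of regions with H3K4me3 were 26.4% for *E. coli* MVs only and 1.22% for mock only, and 9143 genes with *E. coli* MVs and 1023 in mock had a peak. With a common floor of 7.61 normalized tags, 23.6% of *E. coli* MV peaks and 40.7% of mock peaks were shared. With an overlap of 50% of the shorter peak, the shares were 22.1% with *E. coli* MVs and 33.1% in mock, and the medians 1.57 for tags, 0.69 per kb and 0.74 for width. With exactly 1 peak per library (22898 regions), these were 1.35, 0.66 and 0.61. With 500 bp or 5000 bp around the TSS, the gene median was 3.10 or 2.90, and 4 or 34 genes were lower. Over overlapping peaks only the gene median was 2.79, and per kb 1.27.

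Depth limits single sites: a mock peak held a median of 13 tags and the weakest 9. The lists hold no value for a site that was not called, so sites called in 1 library have no ratio. Neither scaling can be chosen from these files, and directions that differ between them are not settled. No library was repeated, so a difference between cultures, between FAIRE preparations and between treatments cannot be told apart.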
